A study of Mus musculus with 6 samples.

Results

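The collagen chain genes encode the alpha chains from which every collagen is built. They were chosen by symbol, as the genes named Col, a type number, the letter a and a chain number in the platform annotation, and 42 of the 18193 genes with a probe set of their own symbol met this rule. Each gene was read from 1 probe set, the one with the highest mean over the 6 arrays. Of the 42 genes, 11 encode chains of fibrillar collagens, 6 of basement membrane collagen IV, 9 of fibril-associated collagens with interrupted triple helices (FACIT) and 16 of other types. Of these 16, 5 belong to beaded-filament collagen VI, 4 to transmembrane collagens, 3 to network collagens VIII and X, 2 to the multiplexins XV and XVIII, 1 to anchoring-fibril collagen VII and 1 to collagen XXVI.

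The study exposed mouse mesenchymal stem cells, bought as a commercial stock, to broadband terahertz radiation and measured transcripts on a mouse array. Both groups were grown in α-MEM with 5% serum, and rosiglitazone (1 µM), insulin (5 µg/ml), IBMX (100 µM) and dexamethasone (1 µM), a mixture that drives fat cell formation, had been added again 48 h before the exposure. The irradiated cultures received 12 h of 35 fs pulses centred near 10 THz, at 1 kHz and an average of 1 mW/cm2, and the control cultures were not irradiated and stood beside them. Both were held at 26 to 27 °C. There were 3 independent experiments with 1 irradiated and 1 control array each, so n is 3 in each group, and precision is limited by how few arrays there are. RNA was taken right after the exposure. No genotype or strain is given in the sources used here.

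A collagen molecule is a triple helix of alpha chains, which may be copies of a single chain or products of different genes. Fibrillar collagens such as I and III form the load-bearing fibres of connective tissue, collagens V and XI are thought to set fibril diameter from inside those fibres, and FACIT collagens sit on the fibril surface. Collagen IV forms the sheet of basement membranes and collagen VI a fine network near cells. Fat cells are surrounded by a basement membrane, and both collagens are abundant around them.

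All values are log2 expression, with differences given as irradiated minus control. Array medians lay between 4.74 and 4.80 and no 2 arrays held the same values. The hybridisation controls of irradiated array 3 had a mean of 11.73 against 11.23 on its control array, and the other 5 arrays lay between 10.8 and 11.2. Correlations between arrays were at least 0.989. Of 9 stromal markers measured, 8 had a mean of at least 6, with 5 higher and 4 lower in irradiated cells. An unadjusted limma p under 0.05 was reached by 4 of the 9, against 8.31% of all genes, and none passed adjustment. These were Vcam1 at 0.49 and Nt5e at 0.24, and Alcam at -0.33 and Pdgfrb at -0.28. All 18 macrophage and myeloid markers had a mean of at least 6 too, Lyz2 at 14.21 and Csf1r at 13.03 in controls, and so had all 9 measured fat cell markers. Of 8 listed osteoblast markers 5 were measured, and 2 of these reached a mean of 6. All 5 were lower, Ibsp at -0.34 and the others at -0.09 to -0.01. Of 8 smooth muscle markers 5 reached a mean of 6, with 7 lower. Markers of several cell types were thus at this level in both groups, and a change in the share of cells and a change in RNA per cell cannot be told apart here.

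Promoter windows are shown for the 4 expressed collagen genes of smallest unadjusted p, a pair that read lower (Col5a3 and Col7a1) and a pair that read higher (Col11a1 and Col27a1). They are the 250 bases before the transcript start, 5′ to 3′ on the gene's own strand, from RefSeq on GRCm38.p6. Col5a3 is at chr9:20815068-20815317 on the minus strand, Col7a1 at chr9:108953336-108953585, Col11a1 at chr3:114030290-114030539 and Col27a1 at chr4:63215162-63215411, these 3 on the plus strand. Capitals mark matches, on either strand, to the GC box (GGGCGG) and the CCAAT box (CCAAT).
Col5a3: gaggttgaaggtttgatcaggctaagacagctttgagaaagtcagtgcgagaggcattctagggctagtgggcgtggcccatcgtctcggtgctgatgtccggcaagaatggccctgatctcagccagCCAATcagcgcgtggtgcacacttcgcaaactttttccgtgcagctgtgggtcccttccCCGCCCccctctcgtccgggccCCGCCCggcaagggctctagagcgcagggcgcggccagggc
Col7a1: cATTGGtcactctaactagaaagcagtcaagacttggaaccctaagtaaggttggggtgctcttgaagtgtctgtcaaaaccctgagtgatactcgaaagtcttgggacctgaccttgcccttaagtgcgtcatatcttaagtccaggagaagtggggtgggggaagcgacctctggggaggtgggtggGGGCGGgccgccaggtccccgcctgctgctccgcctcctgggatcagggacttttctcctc
Col11a1: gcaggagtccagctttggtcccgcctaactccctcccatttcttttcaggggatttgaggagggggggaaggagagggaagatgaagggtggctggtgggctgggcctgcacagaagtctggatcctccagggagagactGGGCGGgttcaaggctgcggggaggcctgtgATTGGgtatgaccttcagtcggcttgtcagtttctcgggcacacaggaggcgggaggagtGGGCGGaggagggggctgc
Col27a1: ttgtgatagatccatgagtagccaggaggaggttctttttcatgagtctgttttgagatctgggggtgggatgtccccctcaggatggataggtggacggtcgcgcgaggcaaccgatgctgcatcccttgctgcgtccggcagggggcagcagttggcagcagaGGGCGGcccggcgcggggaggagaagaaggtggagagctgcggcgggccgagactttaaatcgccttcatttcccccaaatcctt
All 4 windows held a GC box, and all but that of Col27a1 held a CCAAT box. None of the 4 held the TATA box letters TATAAA on either strand, and no matches overlapped. Windows were matched for 33 of the 42 genes, 36 windows in all. The GC box was in 21 of these 36 (58.3%) against 32.7% of 32851 windows of the same length, the CCAAT box in 13 (36.1%) against 33.8% and the TATA box in 5 (13.9%) against 12.4%. Only the GC box thus stood before all 4 genes, in the pair that read lower and the pair that read higher. None of these genes passed adjustment, and the part of these letters in the values was not tested.

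After Benjamini-Hochberg adjustment over all probe sets, limma called no collagen gene when experiments were blocked (0 of 42, and 0% of all genes), and the smallest adjusted p among them was 0.545. An unadjusted p under 0.05 was reached by 5 of 42 (11.9%), against 8.31% of all genes. Of these, 3 were higher, where 3.7% of all genes were, and 2 lower, where 4.61% were. This count was 0 without experiment 2, 1 without experiment 1, 6 without experiment 3 and 2 without the replicate block. The 42 genes had a median difference of -0.03, with 18 higher and 24 lower, beside 0.01 over all genes. Differences ran from -0.34 to 0.33, and 30 of 42 lay within 0.15 of no difference. In 14 genes (33.3%) the sign was the same in all 3 experiments, against 30.8% of all genes, and in 5 (11.9%) the groups did not overlap, against 9.96% of all genes. These shares were near the background.

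**Figure D1:**
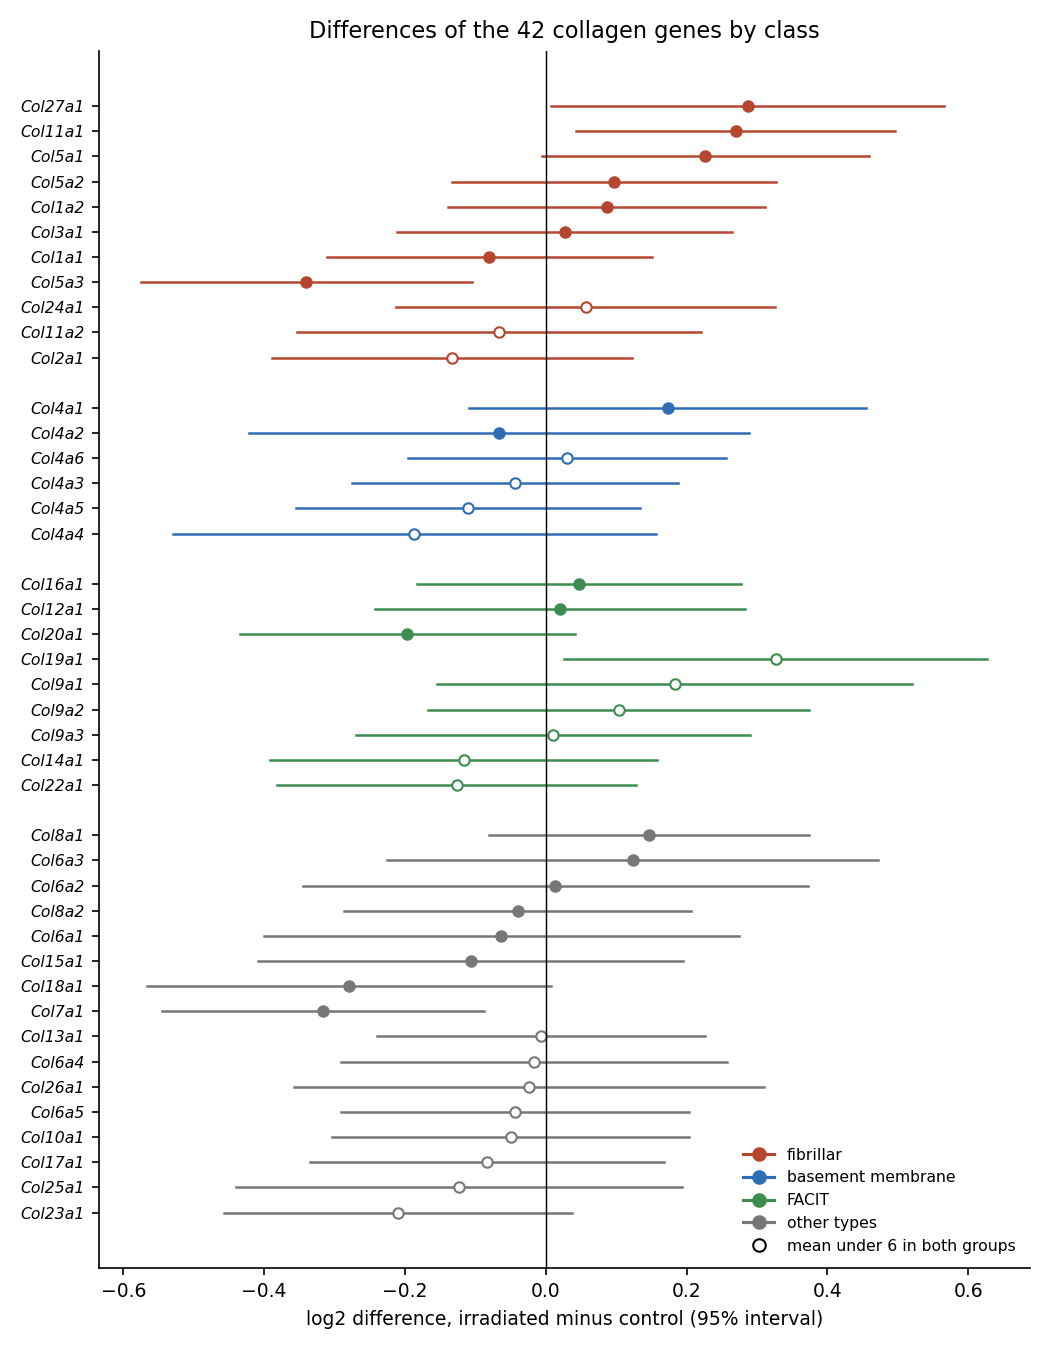
Log2 difference, irradiated minus control, with its 95% interval from the limma fit (horizontal axis) for each of the 42 collagen genes, grouped by class. Open circles are genes with a mean under 6 in both groups. Estimates run from -0.34 for Col5a3 to 0.33 for Col19a1, and most intervals cross 0.

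Genes whose mean reached 6 in either group are termed expressed here, 21 of the 42 collagen genes and 9302 of all genes. Col5a3 was the 1 gene at that level in controls alone, a choice that favours a lower value in irradiated cells. Of these 21 genes, 8 were fibrillar, 2 basement membrane, 3 FACIT and 8 of other types. An unadjusted p under 0.05 was reached by 4 of them (19.0%), against 10.8% of expressed genes. These were 2 higher, where 4.57% of expressed genes were, and 2 lower, where 6.28% were. Without experiment 2 there were 0, without experiment 1 there was 1, without experiment 3 there were 6, and without the replicate block there was 1. In all, 11 (52.4%) had 1 sign in all 3 experiments, against 37.3%. With a mean of 7 asked for, 1 gene had an unadjusted p under 0.05 and 7 had 1 sign. With the mean of all probe sets of a gene, 7 had 1 sign.

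The 4 expressed genes at an unadjusted p under 0.05 come first, by the size of the moderated statistic. Col5a3, a chain of restricted distribution, read 5.85, 5.91 and 6.44 in controls and 5.60, 5.47 and 6.11 in irradiated cells. The groups overlapped, because control 1 and control 2 lay below irradiated array 3, but each irradiated array was below its own control. The difference was -0.34 ± 0.10 (SE), the widest among expressed collagen genes (unadjusted p = 0.0115, limma adjusted p = 0.545). Its other probe set, dim at 3.32 in controls, differed by 0.14 ± 0.13 (SE), and the mean of both by -0.10.

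Col7a1, the chain of the anchoring fibrils that tie epithelium to its stroma, read 6.43, 6.42 and 6.51 in controls and 6.06, 6.08 and 6.27 in irradiated cells. Every irradiated array was below every control array. The difference was -0.32 ± 0.10 (SE, unadjusted p = 0.0141, limma adjusted p = 0.558), from its only probe set.

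Col11a1, which encodes a chain of the cartilage fibril collagen XI and assembles with collagen V chains outside cartilage, read 10.31, 9.90 and 9.74 in controls and 10.62, 10.19 and 9.95 in irradiated cells. The groups overlapped, since the 3 control arrays were spread wider than the shift, yet the within-experiment differences of 0.31, 0.29 and 0.21 were alike. The difference was 0.27 ± 0.09 (SE, unadjusted p = 0.0262, limma adjusted p = 0.576), and the second probe set gave 0.20 ± 0.10 (SE). Col27a1, a fibrillar chain of cartilage, read 6.39, 6.56 and 6.82 in controls and 6.87, 6.89 and 6.87 in irradiated cells. Every irradiated array was above every control array, by the least in experiment 3, where the difference was 0.05. The fit gave 0.29 ± 0.12 (SE, unadjusted p = 0.0454, limma adjusted p = 0.612), and a dimmer probe set gave 0.10 ± 0.16 (SE). Without experiment 1 the difference was 0.19.

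The treatment of the experiments changed these unadjusted values. With the experiment as a random block, at an estimated correlation, limma gave unadjusted p = 0.0663 for Col5a3, 0.00761 for Col7a1, 0.119 for Col11a1 and 0.0318 for Col27a1. Without the replicate block limma gave unadjusted p = 0.143 for Col5a3, 0.0178 for Col7a1, 0.22 for Col11a1 and 0.0553 for Col27a1.

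In their chosen probe sets, the fibrillar chains that make up the bulk of fibres lay close to no difference. Col1a2, the second chain of collagen I, read 13.51, 13.31 and 13.31 in controls 1 to 3 and 13.64, 13.39 and 13.36 in irradiated cells, a difference of 0.09 (95% interval -0.14 to 0.31). Its partner Col1a1 read 9.85, 9.43 and 9.85 in controls and 9.81, 9.26 and 9.82 in irradiated cells, a difference of -0.08 (95% interval -0.31 to 0.15). The 2 chains of collagen I thus read slightly apart in direction, each with 1 sign in all 3 experiments, and both by less than the spread between control arrays. The other expressed probe sets gave -0.09 for Col1a1 and 0.11 for Col1a2, and a dim probe set of Col1a2 gave 0.37 ± 0.12 (SE). Col3a1, the single chain of collagen III, read 11.95, 12.08 and 12.45 in controls and 12.03, 12.18 and 12.35 in irradiated cells. The difference was 0.03 (95% interval -0.21 to 0.27). Its second expressed probe set gave 0.21 ± 0.13 (SE), at 0.45, 0.27 and -0.10 by experiment, and the mean of both gave 0.12.

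Collagen V had chains on either side of no difference, with Col5a3 at -0.34 and its partners above 0. Col5a1, present in most collagen V molecules, read 10.81, 10.54 and 10.59 in controls and 11.08, 10.82 and 10.72 in irradiated cells. It was higher in every experiment, by 0.23 ± 0.10 (SE, unadjusted p = 0.054, limma adjusted p = 0.62), while its 2 other expressed probe sets differed by 0.09 and -0.03 and the mean of all 3 by 0.10. Col5a2, the partner of Col5a1, read 11.60, 11.43 and 11.45 in controls and 11.78, 11.49 and 11.50 in irradiated cells, a difference of 0.10 (95% interval -0.13 to 0.33).

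Most other cartilage transcripts stayed below a mean of 6. Col2a1, the main fibrillar chain of cartilage, had a mean of 5.53 in controls and Acan, the cartilage proteoglycan, of 4.21. Of 9 chondrocyte markers, 2 reached a mean of 6, Sox9 and Comp, and 5 were higher and 4 lower. Comp did so in irradiated cells alone, at 6.06 against 5.93 in controls. The log2 summed signal of the 9 markers lay between 7.57 and 7.85 in controls and between 7.57 and 8.14 in irradiated cells. Hapln1 was at 2.53 and Matn1 at 2.94 in controls.

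**Figure D2:**
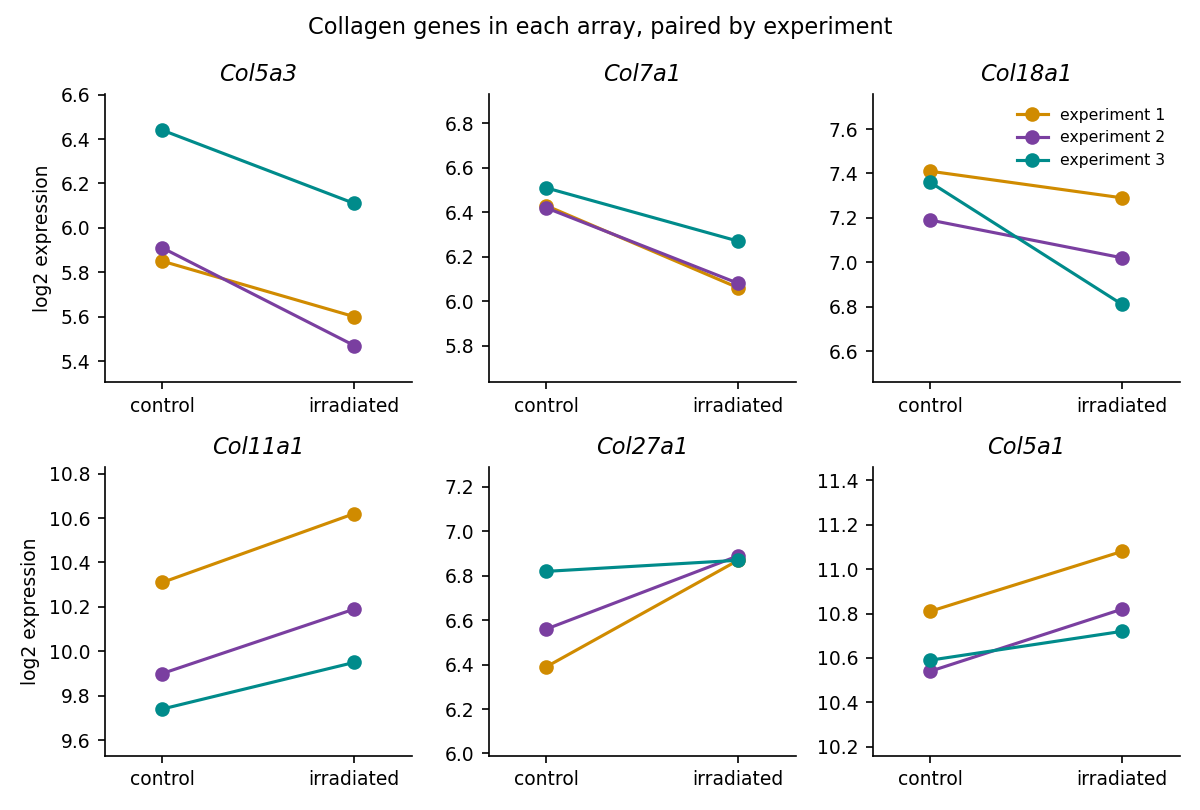
Log2 expression (vertical axis, 1.3 units in every panel) of 6 collagen genes in each array, with lines joining the control and irradiated array of an experiment. Col5a3, Col7a1 and Col18a1 are lower and Col11a1, Col27a1 and Col5a1 higher in each of the 3 experiments.

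The basement membrane chains Col4a1 and Col4a2 assemble together and their genes lie head to head. In RefSeq on GRCm38.p6 Col4a1 starts on the minus strand at position 11312826 of chromosome 8 and Col4a2 on the plus strand at 11312805, so the transcripts run away from each other and share their first 22 bases on opposite strands. That stretch is shown, since it ties both genes to 1 start region, for the plus strand at chr8:11312805-11312826.
Col4a1 and Col4a2 shared start: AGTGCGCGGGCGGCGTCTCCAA
The 300-base windows around both starts overlap by 78 bases. Col4a1 read 11.07, 11.17 and 11.22 in controls and 11.47, 11.34 and 11.17 in irradiated cells. Col4a2 read 9.24, 9.26 and 9.42 in controls and 9.53, 9.20 and 8.99 in irradiated cells. In both, irradiated array 1 was the highest of the 6 and the groups overlapped. The differences were 0.40, 0.17 and -0.05 for Col4a1 and 0.29, -0.06 and -0.43 for Col4a2. The second probe set of Col4a1 gave 0.32, -0.13 and -0.45, close to the values of Col4a2. The fit gave 0.17 (95% interval -0.11 to 0.46) for Col4a1, -0.09 for its second probe set and -0.07 (95% interval -0.42 to 0.29) for Col4a2. Col4a3, Col4a4, Col4a5 and Col4a6, chains of specialised basement membranes, were below 6 in both groups. Their chosen probe sets differed by -0.19 to 0.03. A second probe set of Col4a6, dim at 3.51 in controls, differed by 0.33 ± 0.10 (SE, unadjusted p = 0.0111, limma adjusted p = 0.54).

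Collagen VI followed the same order of experiments. Col6a1 read 11.10, 11.28 and 11.52 in controls and 11.37, 11.21 and 11.13 in irradiated cells, with differences of 0.27, -0.07 and -0.39. Col6a2 read 11.95, 12.19 and 12.38 in controls and 12.31, 12.24 and 12.01 in irradiated cells, with differences of 0.36, 0.05 and -0.37. Col6a3, the largest chain of the molecule, read 11.92, 11.89 and 12.05 in controls and 12.26, 12.20 and 11.77 in irradiated cells, with differences of 0.34, 0.31 and -0.28. The 3 chains were thus higher in irradiated cells of experiment 1 and lower in those of experiment 3. The fit gave -0.06, 0.01 and 0.12, with 95% intervals that all crossed 0, such as -0.35 to 0.37 for Col6a2. Without experiment 1 Col6a2 differed by -0.16, and without experiment 3 Col6a1 differed by 0.10. Col6a4 and Col6a5, later-described chains, were dim.

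**Figure D3:**
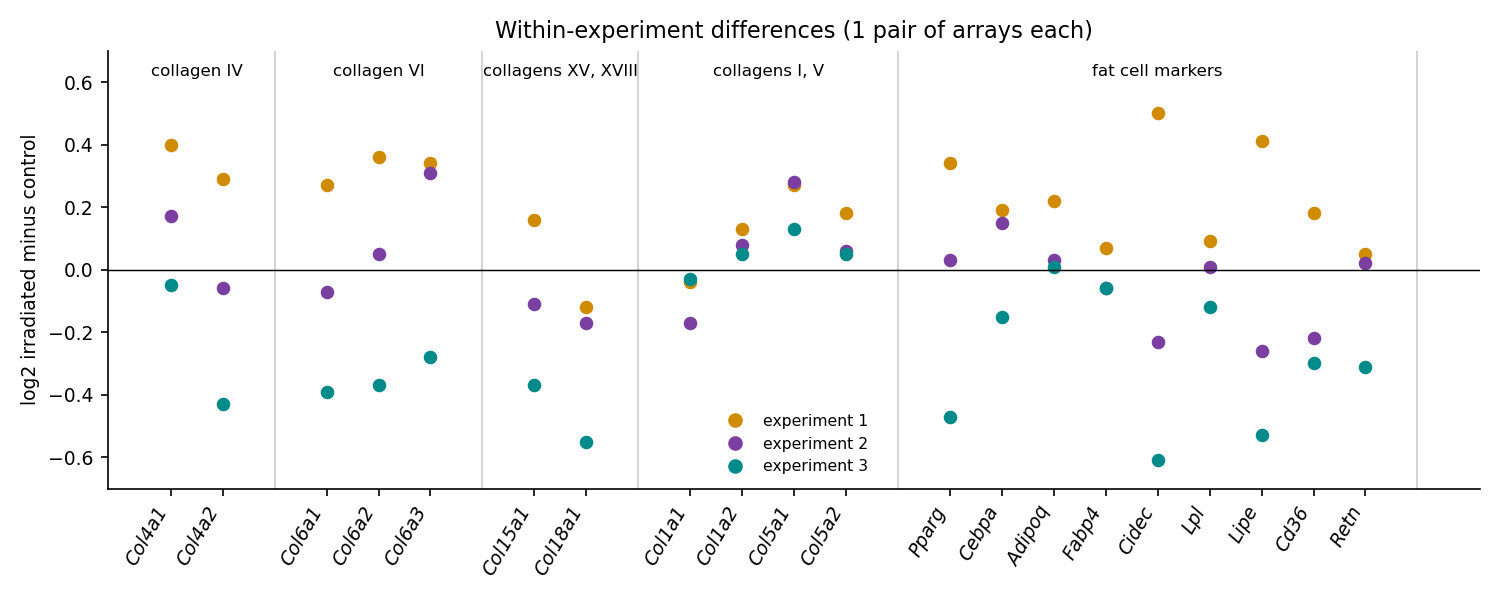
Log2 difference between the irradiated and control array of each experiment (vertical axis) for chains of collagens IV, VI, XV, XVIII, I and V and for 9 fat cell markers. Points of experiment 1 lie above and those of experiment 3 below for the collagen VI chains, as for Pparg, Cidec and Lipe, while Col1a2, Col5a1 and Col5a2 stay above 0.

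Higher in experiment 1 and lower in experiment 3 was a pattern singled out after its values were seen. It held for 15 of 42 collagen genes (35.7%), against 21.4% of all genes, and for 10 of the 21 expressed ones (47.6%), against 20.4%. These 10 were Col3a1, Col4a1, Col4a2, Col6a1, Col6a2, Col6a3, Col8a2, Col12a1, Col15a1 and Col16a1. The opposite order held for 7 of 42, against 21.6% of all genes, and for 0 of the 21 expressed, against 19% of expressed genes. Each experiment has 1 pair of arrays, so a difference between experiments has no error of its own.

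Most fat cell markers had the same order in these arrays, by differing amounts. All 9 were higher in experiment 1, and 1, Adipoq, was also higher in experiment 3, at 0.22, 0.03 and 0.01. Their median difference was 0.19, 0.01 and -0.30 in experiments 1, 2 and 3, over 9 measured genes. The widest swings were those of Pparg, Cidec and Lipe. Pparg, the regulator of fat cell formation, differed by 0.34, 0.03 and -0.47. Cidec, a lipid droplet protein, differed by 0.50, -0.23 and -0.61, and Lipe, the hormone-sensitive lipase, by 0.41, -0.26 and -0.53. Fabp4 moved less, at 0.07, -0.06 and -0.06, as did Lpl, at 0.09, 0.01 and -0.12. The log2 summed signal of the markers lay between 15.53 and 15.72 in controls and between 15.55 and 15.68 in irradiated cells. Myeloid markers had medians of -0.22, 0.06 and -0.10 in the 3 experiments, with 15 of 18 lower, and a log2 summed signal of 16.17 to 16.78 in controls and 15.98 to 16.62 in irradiated cells. The part of either cell type in the collagen values was not tested.

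**Figure D4:**
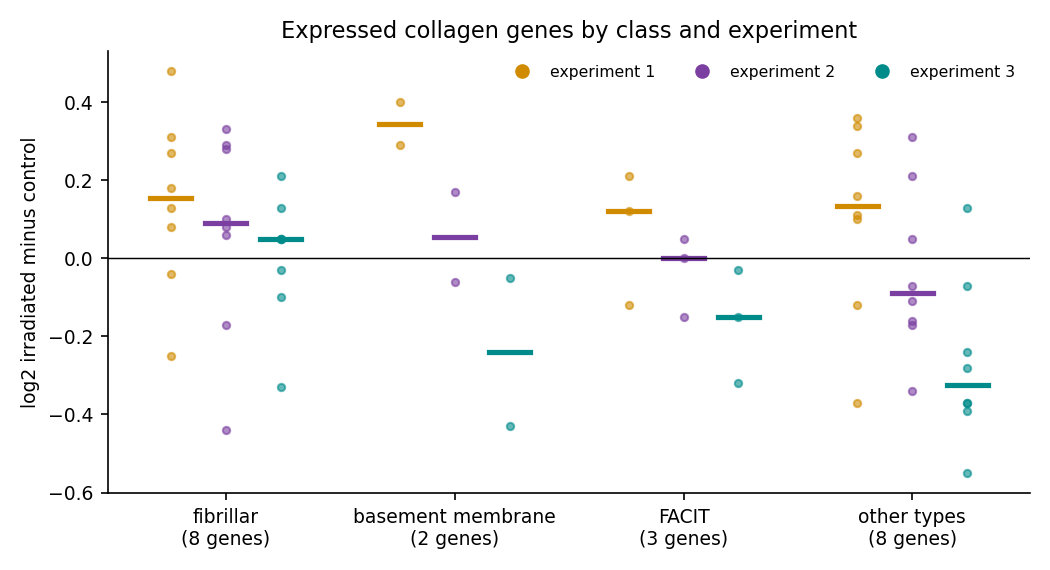
Log2 difference in each experiment (vertical axis) for the 21 expressed collagen genes by class, with a bar at each median. Fibrillar medians are 0.155, 0.09 and 0.05 in experiments 1, 2 and 3, and those of the other types are 0.135, -0.09 and -0.325.

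By class, the 8 expressed fibrillar genes had a median difference of 0.09, with 6 higher and 2 lower and 1 sign in 7 of 8. All 11 fibrillar genes had a median of 0.06, with 7 higher. The 6 basement membrane genes had a median of -0.06, with 2 higher and 4 lower, and none with 1 sign. The 9 FACIT genes had a median of 0.02, with 6 higher. The 16 genes of other types had a median of -0.05, with 3 higher and 13 lower. Of these 16, the 8 dim genes were all lower, and of the 8 expressed ones 3 were higher and 5 lower. Among expressed genes, 1 of 2 basement membrane genes and 2 of 3 FACIT genes were higher. In experiment 3 the expressed members of the other types had a median of -0.325, against 0 over all expressed genes. With 1 experiment left out, the median of the expressed fibrillar genes stayed between 0.06 and 0.1125. Those of the expressed genes of the other 3 classes changed sign. Without experiment 1 the median of the 2 expressed basement membrane genes went from 0.05 to -0.0925. That of the 3 expressed FACIT genes went from 0.02 to -0.075. Without experiment 3 that of the 8 expressed genes of other types went from -0.05 to 0.0625. Differences between classes were not tested.

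Among FACIT genes, Col12a1, of dense connective tissue, read 9.49, 9.36 and 9.23 in controls and 9.70, 9.36 and 9.08 in irradiated cells. The difference was 0.02 (95% interval -0.24 to 0.28). Its other expressed probe set gave 0.13 ± 0.13 (SE), at 0.09, 0.43 and -0.12 by experiment. Col16a1 read 7.74, 7.49 and 7.45 in controls and 7.86, 7.54 and 7.42 in irradiated cells, a difference of 0.05 (95% interval -0.18 to 0.28). Both genes read highest in irradiated array 1, with overlapping groups. Col20a1, little studied, read 6.28, 6.24 and 6.26 in controls and 6.16, 6.09 and 5.94 in irradiated cells. Its groups did not overlap, and the difference was -0.20 ± 0.10 (SE, limma adjusted p = 0.657), close to the level of 6. Its 3 dimmer probe sets differed by -0.07 ± 0.11, -0.15 ± 0.12 and -0.09 ± 0.14 (SE), none with 1 sign in all 3 experiments. In experiment 3 they differed by 0, 0.08 and 0.06, against -0.32 for the chosen probe set. Col19a1, at 3.84 in controls, differed by 0.33 ± 0.13 (SE, unadjusted p = 0.0373, limma adjusted p = 0.6), but its other probe sets differed by -0.24 and 0.24.

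Epithelial markers stand beside Col7a1, since its fibrils anchor epithelium. Of 8 epithelial markers, 1 reached a mean of 6, Epcam at 7.20 in controls, with 5 of 8 higher, and Cdh1 was at 2.52. Their log2 summed signal lay between 7.88 and 8.24 in controls and between 8.12 and 8.18 in irradiated cells.

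Col18a1, a heparan sulfate proteoglycan of basement membranes whose end fragment is endostatin, read 7.41, 7.19 and 7.36 in controls and 7.29, 7.02 and 6.81 in irradiated cells. The groups overlapped, and irradiated array 3 was the lowest of all 6. The difference was -0.28 ± 0.12 (SE, unadjusted p = 0.0542, limma adjusted p = 0.62), and the second probe set gave -0.44 ± 0.13 (SE, unadjusted p = 0.013). Without experiment 3 the difference was -0.145 (unadjusted p = 0.185). The related Col15a1 read 5.91, 6.07 and 6.62 in controls and 6.07, 5.96 and 6.25 in irradiated cells, a difference of -0.11 (95% interval -0.41 to 0.19), or 0.025 without experiment 3. Of 10 endothelial markers 5 were higher and 5 lower, and 1, Egfl7, reached a mean of 6 in irradiated cells alone. Egfl7 was at 5.88 in controls and 6.23 in irradiated cells, and Pecam1 and Cdh5 were at 4.13 and 3.84 in controls. The log2 summed signal of the 10 markers was 7.998 to 8.155 in controls and 7.894 to 8.164 in irradiated cells.

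The network chains of collagen VIII had estimates on either side of 0. Col8a1 read 8.16, 7.78 and 7.54 in controls and 8.26, 7.99 and 7.67 in irradiated cells, a difference of 0.15 (95% interval -0.08 to 0.37). It was higher in every experiment in 2 expressed probe sets, the second at 0.07, and another, dim probe set gave 0.37 ± 0.12 (SE). Col8a2 read 7.67, 7.19 and 7.29 in controls and 7.78, 7.03 and 7.22 in irradiated cells, a difference of -0.04 (95% interval -0.29 to 0.21), and the groups of both chains overlapped.

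The 21 collagen genes below the level of 6 in both groups had means from 2.43 to 5.71, and 6 were higher and 15 lower, between -0.21 and 0.33. They were Col2a1, Col11a2 and Col24a1 among fibrillar genes, Col4a3 to Col4a6, the FACIT genes Col9a1, Col9a2, Col9a3, Col14a1, Col19a1 and Col22a1, and Col6a4, Col6a5, Col10a1, Col13a1, Col17a1, Col23a1, Col25a1 and Col26a1. After Col19a1 the smallest unadjusted p values were those of Col23a1, a transmembrane collagen, at -0.21 ± 0.10 (SE), Col4a4 at -0.19 ± 0.14 (SE) and Col9a1 at 0.18 ± 0.14 (SE). The 3 probe sets of Col23a1 were all lower, by -0.21, -0.18 and -0.17. The other probe sets did not repeat the values of Col4a4, at 0.02 and -0.04, or of Col9a1, at -0.0033. None of these 4 genes reached a mean of 6.

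The choice of probe set used the mean levels of all probe sets of a gene, but not their differences. The differences of the other probe sets can therefore be set beside that of the chosen one. The 42 genes had 82 probe sets, 33 of them expressed, and 11 genes had more than 1 expressed probe set. In 9 of these 11 the probe sets had 1 sign, and the exceptions were Col4a1 and Col5a1. The same share over all genes is not given here, so this count says nothing particular to collagens. Probe sets of 1 gene share their RNA and arrays, so they repeat the measurement and not the experiment.

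**Figure D5:**
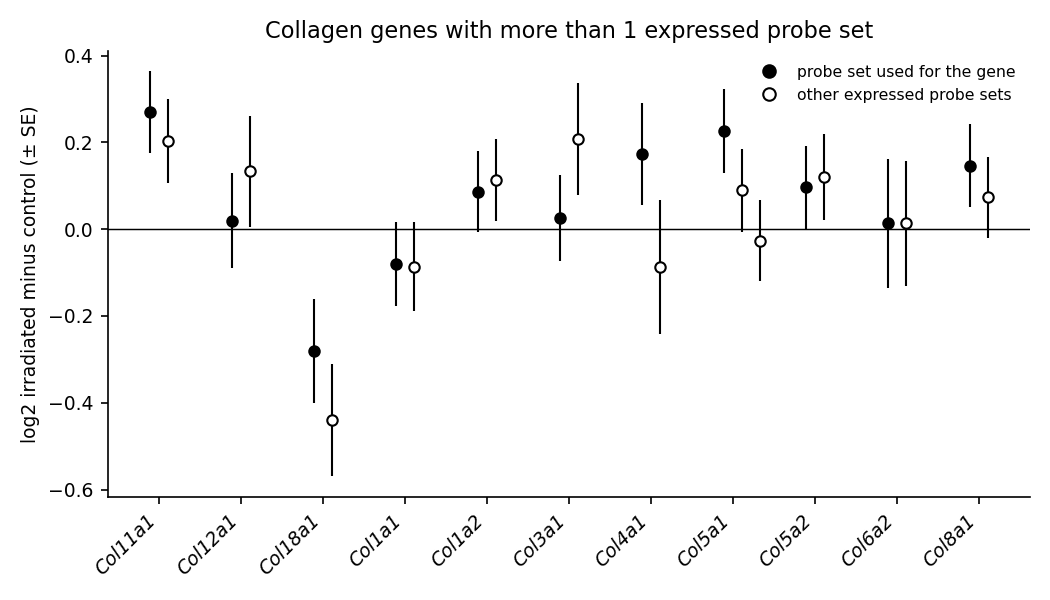
Log2 difference ± SE from the limma fit (vertical axis) for the 11 collagen genes with more than 1 expressed probe set, with filled circles for the probe set used. Both probe sets of Col11a1 lie above 0 and both of Col18a1 below, while those of Col4a1 lie on either side.

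Genes that make, export, process, anchor and remove collagen were taken as 7 lists, chosen with earlier results of these data known. Of 76 measured genes 44 were higher and 31 lower, with a median of 0.03. None passed adjustment (limma, 0 of 76), and 5 were at an unadjusted p under 0.05, against 8.31% of all genes. In the folding list 8 of 17 were higher and 9 lower. Plod2, the lysyl hydroxylase of the chain ends, differed by 0.37 ± 0.10 (SE, limma adjusted p = 0.538), while Serpinh1, the collagen chaperone, differed by 0.07. In the export list 3 of 9 were higher and 6 lower. Tmem38b, an endoplasmic reticulum ion channel needed for normal collagen I secretion, had differences of -0.46, -0.44 and -0.93, and -0.61 ± 0.13 in the fit (SE, limma adjusted p = 0.53).

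In the processing list 3 of 8 were higher and 4 lower, and 5 of 5 crosslinking genes were higher, none at an unadjusted p under 0.05, with a median of 0.08. Lox, the main crosslinking oxidase, differed by 0.12. Among fibril partners 11 of 15 were higher, with Thbs2, a matricellular protein, at 0.27 ± 0.11 (SE, limma adjusted p = 0.607). Of 10 receptors 5 were higher and 5 lower, with Ddr2, a receptor tyrosine kinase for fibrillar collagen, at 0.24 ± 0.10 (SE, limma adjusted p = 0.612). Among 12 degradation genes 9 were higher and 3 lower. Mmp8, the neutrophil collagenase, was the widest at -0.82 ± 0.14 (SE, limma adjusted p = 0.516). Its differences were -0.60, -0.66 and -1.21, and its mean was 6.16 in controls and 5.34 in irradiated cells. It thus reached the level of 6 in controls alone, a choice that favours a lower value in irradiated cells. Myeloid markers, of cells known to make Mmp8, were lower in 15 of 18 in the fit. Their medians were -0.22, 0.06 and -0.105 in experiments 1, 2 and 3, with 1, 11 and 2 of 18 higher. The part of myeloid cells in the Mmp8 values was not tested.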

How the data were processed

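Expression was measured in 6 arrays, 3 irradiated and 3 control. Each array's deposited file holds log2 expression to 2 decimals for each probe set, made by the authors with RMA and the affy package, with limma also named, per the submitters' processing notes. Versions, and which arrays were normalized together, are not stated in the labels. RMA compresses differences of dim probe sets.

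Of 45101 probe sets 64 array controls were left out, and 34945 of the other 45037 carry 1 gene symbol in the platform annotation. All 45037 entered a two-sided limma 3.58.1 comparison (R 4.3.3, lmFit and eBayes) that blocked on experiment, with Benjamini-Hochberg adjusted p called at 0.05. The fit had 2 residual degrees of freedom. eBayes draws the variance of each probe set toward that of all probe sets, with 4.52 prior degrees of freedom. SE, 95% intervals and p-values come from this moderated fit. The block follows the design text, which gives each irradiated culture its own adjacent control. Deviations from the group means correlated at 0.787, 0.028 and 0.324 within experiments 1, 2 and 3, but control 3 correlated more with irradiated 2 (0.552) than with its own pair, and control 2 more with irradiated 3 (0.179). The values alone do not bear out the pairing, which rests on that text. P-values rest on the spread between these 3 experiments together with the variance shared over all probe sets.

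The members and lists were chosen with earlier results of these data known. Expressed members were named with values, with the 4 dim ones of smallest unadjusted p, and in each list up to 4 expressed genes at an unadjusted p under 0.05. Other genes named were chosen after their values were seen. List genes under older symbols were found through the RefSeq table of GRCm38.p6. Log2 summed signal is the log2 of the sum of a list's linear values. The fit was tested on simulated data. Plots used matplotlib 3.10.9 (Python 3.11.15).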

Additional observations from a re-analysis of the deposited data

How the results depend on the processing

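No collagen gene passed under any of the 12 alternatives run. The 10 of them that refit each gene left the sign of 14 of the 21 expressed genes as it was. Leaving out dim probe sets, the random block, no block and the intensity trend with robust prior keep a gene's difference. They change only its error, so no sign could turn there. With replicate 1, 2 or 3 left out, the count of collagen genes at an unadjusted p under 0.05 ran from 0 to 6, over all 42 and over the expressed genes alike. Without the replicate block it was 2, and 1 among expressed genes, and with the experiment as a random block it was 4, and 3 among expressed genes. The expressed genes at an unadjusted p under 0.05 numbered 1 at a level of 7. Genes with 1 sign in all 3 experiments numbered 7 at a level of 7 and 7 with the mean of all probe sets of a gene, against 11. The replicate block changed no call. Of 210 pairs of gene and alternative, which include those where no sign could turn, the sign turned in 8, all with an experiment left out. Col12a1 then ran from -0.075 to 0.105, Col15a1 from -0.24 to 0.025, Col3a1 from -0.01 to 0.09, Col4a2 from -0.245 to 0.115, Col6a1 from -0.23 to 0.10, Col6a2 from -0.16 to 0.205 and Col8a2 from -0.115 to 0.02. The cause was not tested. With 1 experiment left out the fit has 1 residual degree of freedom, so such counts say little about stability.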
